A study of Mus musculus with 15 samples.

Results

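The miR-23/27/24 family is made from a pair of gene clusters, and its 5 mature miRNAs on the array, mmu-miR-23a, mmu-miR-27a, mmu-miR-24, mmu-miR-23b and mmu-miR-27b, were followed in mouse liver grafts after transplantation. They were found by their exact array names and are 5 of the 567 mouse miRNAs that the Agilent mouse miRNA array carries. All 5 were detected on all 15 arrays and were among the 103 miRNAs that could be tested. The grafts formed 5 groups of 3 mice, with 1 graft per array: syngeneic grafts removed at day 5, and allografts removed at day 5, day 8, day 14 and day 100. The allografts were livers of B10.BR mice (H2-Kk) in B10.D2 recipients (H2-Kd), all male, and the study gave these recipients no immunosuppressive drugs. No immunosuppressive treatment is named for the syngeneic grafts. The labels give the same allogeneic strain pair for the syngeneic arrays, whose group was therefore read from the sample titles, and no source used here names their strain or the age of the mice. The comparison with the syngeneic grafts asks which miRNAs change in a graft that meets an alloimmune response. Because syngeneic grafts were sampled at day 5 alone, kind of graft and time after surgery cannot be told apart at days 8, 14 and 100.

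A miRNA cluster is a stretch of genome from which several miRNAs are cut out of a common primary transcript, so its members can be made together, although each mature strand has its own stability. The a-cluster yields miR-23a, miR-27a and miR-24 and is known for its activity in myeloid cells, where the transcription factor PU.1 drives it. The b-cluster yields miR-23b, miR-27b and miR-24 and is known from endothelial cells and from the liver, where miR-27b acts on lipid metabolism genes. In T cells, members of the family restrain effector cytokine programs. A miRNA finds its targets mainly through its seed, bases 2 to 8 from the 5′ end, so members with the same seed have largely shared targets.

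The mature strands below show which of the listed members can be told apart by sequence. The RefSeq table used here held no mature sequence of miR-23b, so miR-23a and miR-23b were not compared by sequence. Seeds are in capitals, and sequences and positions are from RefSeq on build GRCm38.p6, plus strand.
miR-23a (Mir23a, chr8:84208563-84208583): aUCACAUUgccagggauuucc
miR-27a (Mir27a, chr8:84208727-84208747): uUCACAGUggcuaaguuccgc
miR-27b (Mir27b, chr13:63300760-63300780): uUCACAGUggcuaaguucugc
miR-24 (Mir24-2, chr8:84208875-84208896, and Mir24-1, chr13:63301251-63301272): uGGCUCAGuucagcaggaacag
miR-27a and miR-27b have the same seed and differ by 1 base, C19U, counted from the 5′ end with the base of miR-27a first. How far each array probe also binds the paralog was not tested. Mature miR-24 is identical from both loci, so its signal is the sum of both clusters. The hairpins of the a-cluster lie within 404 bases (chr8:84208518-84208921) and overlap no other gene of the RefSeq table. Those of the b-cluster lie within 792 bases (chr13:63300484-63301275), inside the span of the protein-coding gene Aopep.

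The values below are scaled signals: the background-subtracted intensity of a miRNA, summed over its probes, divided by the 75th percentile of the array over the 52 miRNAs detected on all 15 arrays. A value of 1 is thus the level of a miRNA at that percentile. Levels are compared between groups for 1 miRNA at a time, since probes differ in brightness. Fold changes and their standard errors are from limma on log2 scaled signals of all 15 arrays, and adjusted p-values are by the Benjamini-Hochberg method over the 103 tested miRNAs, with a threshold of 0.05. The 75th percentiles ranged from 395 to 616 on the syngeneic arrays and from 457 to 1018 on the allograft arrays. Without scaling, the median log2 fold change of all tested miRNAs against the syngeneic grafts lay at 0.54 at day 5, 0.69 at day 8, 0.71 at day 14 and 0.33 at day 100, so all changes given here are relative to the bulk of the miRNAs on the array. Of the miRNAs called at day 14, 28 were higher and 19 lower after scaling, and 45 were higher and 3 lower without it. The arrays lay on 2 slides. Slide 1 held the allografts of days 8 and 14 and replicates 1 and 2 of the syngeneic grafts, and slide 2 held the allografts of days 5 and 100 and replicate 3 of the syngeneic grafts. Replicate 1 of day 100 was a noisy array, with an additive error of 13.1 intensity units compared with 2.67 to 3.66 on the other arrays.

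mmu-miR-23a, known for repressing glutaminase in growing cells, rose in the allografts. Its scaled signal in the 3 syngeneic grafts was 0.385, 0.275 and 0.499. The allografts had 0.620, 0.681 and 0.638 at day 5, 0.736, 0.873 and 0.802 at day 8, 1.01, 0.790 and 0.780 at day 14, and 0.686, 0.598 and 0.801 at day 100. The lowest of the 12 allografts was thus above the highest syngeneic graft. Day by day, 30.1%, 51.5%, 54.4% and 29.1% of all tested miRNAs did not overlap with the syngeneic grafts, in either direction, at days 5, 8, 14 and 100. The share set apart over all 12 allografts was not counted. By limma over all 15 arrays miR-23a was upregulated compared with the syngeneic grafts on all 4 days, and the calls of days 5 and 100 were lost with the slide as a term (adjusted p = 0.299 and 0.231). The log2 fold change was 0.78 ± 0.20 (SE; 1.72-fold, adjusted p = 0.0118 by limma) at day 5, 1.10 ± 0.20 (2.14-fold, adjusted p = 0.000993) at day 8, 1.19 ± 0.20 (2.27-fold, adjusted p = 0.000337) at day 14 and 0.88 ± 0.20 (1.84-fold, adjusted p = 0.0110) at day 100. In the order of the group means, from syngeneic grafts through days 5, 100 and 8 to day 14, the only neighbors whose difference passed the threshold were the syngeneic grafts and day 5, and the arrays of the other neighbors overlapped.

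mmu-miR-27a, known for repressing PPARγ and other genes of lipid storage, moved with its cluster neighbor. Its scaled signal was 0.223, 0.242 and 0.328 in the syngeneic grafts. It was 0.486, 0.429 and 0.477 at day 5, 0.470, 0.460 and 0.489 at day 8, 0.801, 0.642 and 0.554 at day 14, and 0.366, 0.417 and 0.449 at day 100 of the allografts. Again no allograft reached down to the syngeneic range, and the 3 grafts of day 14 lay above all other grafts. The log2 fold change against the syngeneic grafts was 0.83 ± 0.17 (1.78-fold, adjusted p = 0.00708 by limma) at day 5, 0.86 ± 0.17 (1.81-fold, adjusted p = 0.00157) at day 8, 1.33 ± 0.17 (2.52-fold, adjusted p = 5.65e-05) at day 14 and 0.65 ± 0.17 (1.57-fold, adjusted p = 0.0189) at day 100. In the order of its group means, from syngeneic grafts through days 100, 5 and 8 to day 14, the syngeneic grafts and day 100 were the only neighbors whose difference passed the threshold. Days 8 and 14 missed it (adjusted p = 0.130), although their arrays did not overlap, as in 46.6% of all tested miRNAs. With the slide as a term the calls of days 5 and 100 were lost for miR-27a as well (adjusted p = 0.154 and 0.376). Both miR-23a and miR-27a are among the miRNAs that the study chose for their change on these same arrays, so their rise here is not independent evidence. The study also measured both in the grafts by quantitative RT-PCR and reports a course like that of its arrays. Those measurements were not examined here.

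The changes of mmu-miR-24, which is cut from both clusters and is known for lowering the histone variant H2AX in blood cells, were smaller. Its scaled signal was 0.384, 0.436 and 0.501 in the syngeneic group. The allografts had 0.570, 0.562 and 0.527 at day 5, 0.597, 0.620 and 0.583 at day 8, 0.738, 0.622 and 0.547 at day 14, and 0.520, 0.4996 and 0.583 at day 100. The groups did not overlap with the syngeneic grafts at days 5, 8 and 14, and met at day 100. miR-24 was upregulated at day 8 by a log2 fold change of 0.45 ± 0.14 (1.37-fold, adjusted p = 0.0240 by limma) and at day 14 by 0.53 ± 0.14 (1.44-fold, adjusted p = 0.00914). The values of 0.34 ± 0.14 at day 5 (adjusted p = 0.114) and 0.28 ± 0.14 at day 100 (adjusted p = 0.137) did not pass the threshold. In the order of its group means no difference between neighbors passed the threshold, and among them the arrays of days 5 and 8 alone did not overlap, which held for 55.3% of all tested miRNAs. The call of day 8 was lost when any 1 of 5 arrays was left out, which were the 3 of day 8 and replicates 1 and 2 of the syngeneic grafts, and its highest adjusted p was then 0.0918. Neither call passed with the 75th percentile over all miRNAs (adjusted p = 0.360 at day 8 and 0.218 at day 14) or in fits of only the groups compared (0.0511 and 0.0794). The value of day 5 passed with the 75th percentile without the members (adjusted p = 0.0369), with the brightest probe (0.0392) and without replicate 3 of the syngeneic grafts (0.0436), and that of day 100 with the 75th percentile without the members (0.0371). With the slide as a term, the values of miR-24 fell to 0.14 ± 0.18 (adjusted p = 0.668 by limma) at day 5 and 0.09 ± 0.18 (adjusted p = 0.814) at day 100.

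Of the b-cluster, neither miR-23b nor miR-27b passed the threshold on any day. mmu-miR-23b, known for restraining inflammatory signaling in tissue cells, had scaled signals of 0.490, 0.308 and 0.493 in the syngeneic grafts. The allografts had values of 0.425, 0.514 and 0.477 at day 5, 0.584, 0.609 and 0.522 at day 8, 0.487, 0.456 and 0.479 at day 14, and 0.519, 0.520 and 0.558 at day 100. Replicate 2 of the syngeneic grafts was the lowest of all 15 arrays. The allografts lay above the syngeneic grafts at days 8 and 100, and overlapped with them at days 5 and 14. The log2 fold change of miR-23b was 0.16 ± 0.17 at day 5, 0.44 ± 0.17 at day 8, 0.17 ± 0.17 at day 14 and 0.34 ± 0.17 at day 100, with adjusted p-values by limma of 0.521, 0.0569, 0.449 and 0.137. Its 95% interval at day 14 ran from -0.20 to 0.54. The value of day 8 lay close to the threshold and passed it under several other settings. Its adjusted p by limma was 0.0333 with the 75th percentile without the members. It was 0.0344 without replicate 1 of the syngeneic grafts and 0.0258 without replicate 3. Without replicate 2 of the syngeneic grafts the log2 fold change of day 8 fell to 0.21 and did not pass. The highest adjusted p by limma with 1 array left out was 0.235.

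mmu-miR-27b, a regulator of lipid metabolism genes in the liver, gave a weak signal, and on 5 of 15 arrays only 1 of its probes was detected. Its scaled signal was 0.197, 0.182 and 0.229 in the syngeneic group. The allografts had 0.169, 0.203 and 0.213 at day 5, 0.232, 0.196 and 0.221 at day 8, 0.174, 0.181 and 0.169 at day 14, and 0.160, 0.169 and 0.182 at day 100. The 3 grafts of day 14 all lay below the syngeneic grafts, by a narrow margin, and on the other days the groups overlapped. Without scaling the mean of day 14 was above that of the syngeneic grafts, by 0.57 on the log2 scale. The log2 fold change was -0.06 ± 0.14 at day 5, 0.10 ± 0.14 at day 8, -0.21 ± 0.14 at day 14 and -0.25 ± 0.14 at day 100, with adjusted p-values by limma of 0.818, 0.682, 0.245 and 0.164. miR-27b was called lower at day 14 with the normexp background correction (-0.36, adjusted p = 0.0295), and at day 100 with the total signal of the software (-0.33, adjusted p = 0.0486) and the mean log2 of the probes (-0.32, adjusted p = 0.0392). At day 14 the 95% interval of miR-27b, from -0.51 to 0.09, lay wholly below that of miR-27a, from 0.96 to 1.71.

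**Figure D1:**
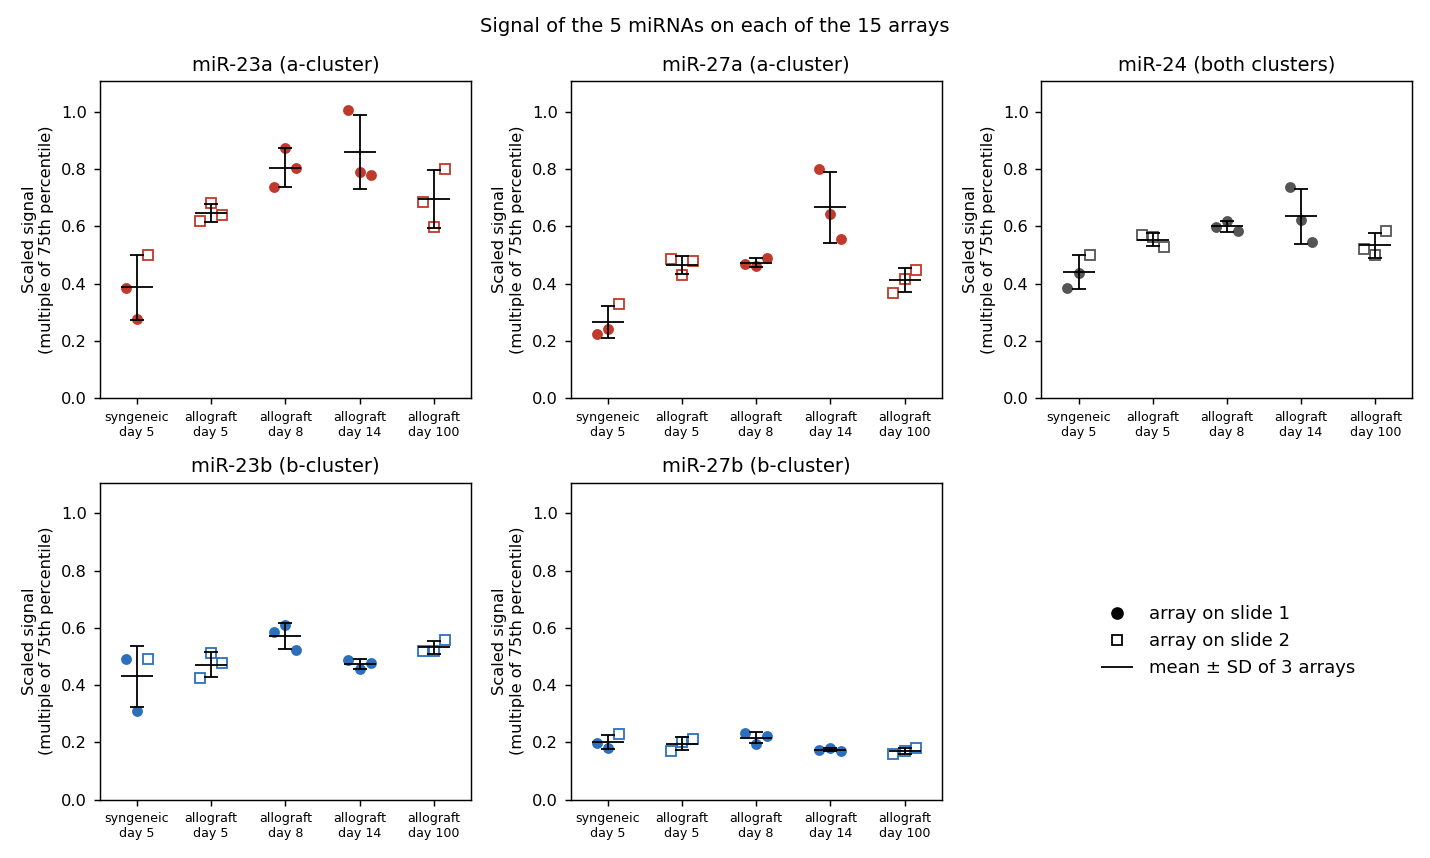
Scaled signal of the 5 miRNAs on each of the 15 arrays, by group, as a multiple of the array's 75th percentile. Points are single grafts (filled circles slide 1, open squares slide 2) and lines the mean ± SD of 3. For miR-23a and miR-27a all 12 allografts lie above the 3 syngeneic grafts, while for miR-23b and miR-27b the groups mostly overlap.

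Counted over the family, 2 of 5 members were called at day 5, where 25.2% of all tested miRNAs were called, and 3 of 5 at day 8, where 40.8% were. At day 14 it was 3 of 5 against 45.6%, and at day 100 it was 2 of 5 against 31.1%. The arrays of 3, 4, 4 and 3 members did not overlap with the syngeneic arrays at days 5, 8, 14 and 100, which held for 30.1%, 51.5%, 54.4% and 29.1% of all tested miRNAs. All calls were upward, and upward calls made up 18.4%, 23.3%, 27.2% and 16.5% of the tested miRNAs at days 5, 8, 14 and 100. The median log2 fold change of the 5 members was 0.34, 0.45, 0.53 and 0.34 on these days, beside 0.12, 0.14, 0.07 and 0.00 over all tested miRNAs. Many miRNAs therefore changed on each day. The share of members called is not far from the share called in either direction, and lies further above the share called upward. It rests on 5 members, which were chosen with earlier results of these data known. Within the family, the a-cluster miRNAs were called in 8 of 8 comparisons with the syngeneic grafts and the b-cluster miRNAs in 0 of 8. The lowest unadjusted p of the b-cluster was 0.0243 by limma, for miR-23b at day 8. By the methods' t-test the b-cluster had 0 of 8 at an unadjusted p under 0.05. That test passed 25.2%, 38.8%, 38.8% and 18.4% of all tested miRNAs at days 5, 8, 14 and 100. Over the alternative settings, 30 of 272 values of the a-cluster no longer passed, and 14 of 272 of the b-cluster did, of which 11 were miR-23b, higher, and 3 were miR-27b, lower. A moderated F test over the 5 groups, which called 64.1% of all tested miRNAs, called miR-23a (adjusted p = 0.00219), miR-27a (adjusted p = 0.000696) and miR-24 (adjusted p = 0.0422), and not miR-23b (adjusted p = 0.197) or miR-27b (adjusted p = 0.168).

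The calls of days 5 and 100 rested on a comparison across slides, and were also lost with the 75th percentile over all miRNAs. Slide 2 held these groups with 1 syngeneic graft, whose scaled signals of miR-23a, miR-27a and miR-24 were the highest of the 3. With the slide as a block, 0 of 5 members were called at day 5 and 0 of 5 at day 100. The lowest unadjusted p by limma was then 0.0299 at day 5, for miR-27a, and 0.0277 at day 100, for miR-27b, which was lower (-0.43). That fit called 4.85% of all tested miRNAs at day 5 and 15.5% at day 100, and 44.7% at day 8 and 47.6% at day 14. The log2 fold change of miR-23a was then 0.37 ± 0.23 (adjusted p = 0.299 by limma) at day 5 and 0.47 ± 0.23 (adjusted p = 0.231) at day 100, and that of miR-27a was 0.50 ± 0.20 (adjusted p = 0.154) and 0.32 ± 0.20 (adjusted p = 0.376). Within slide 2, where the lone syngeneic graft is assumed to vary like the other groups, these values were the same in size and 0 of 5 members were called on either day, where 4.85% of all tested miRNAs were called at day 5 and 11.7% at day 100. Days 8 and 14 could be compared with the syngeneic grafts on slide 1, where 41.7% and 48.5% of all tested miRNAs were called. There the log2 fold change of miR-23a was 1.30 ± 0.20 (adjusted p = 0.00183 by limma) at day 8 and 1.39 ± 0.20 (adjusted p = 0.000972) at day 14, and that of miR-27a was 1.02 ± 0.17 (adjusted p = 0.00269) and 1.50 ± 0.17 (adjusted p = 0.000432). miR-24 was also called on both days on slide 1, with 0.55 ± 0.16 (adjusted p = 0.0285) and 0.62 ± 0.16 (adjusted p = 0.0145). For day 8, miR-23b was called in the fit with a slide term (0.55 ± 0.18, adjusted p = 0.0258), and within slide 1 it had an adjusted p of 0.0548.

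**Figure D2:**
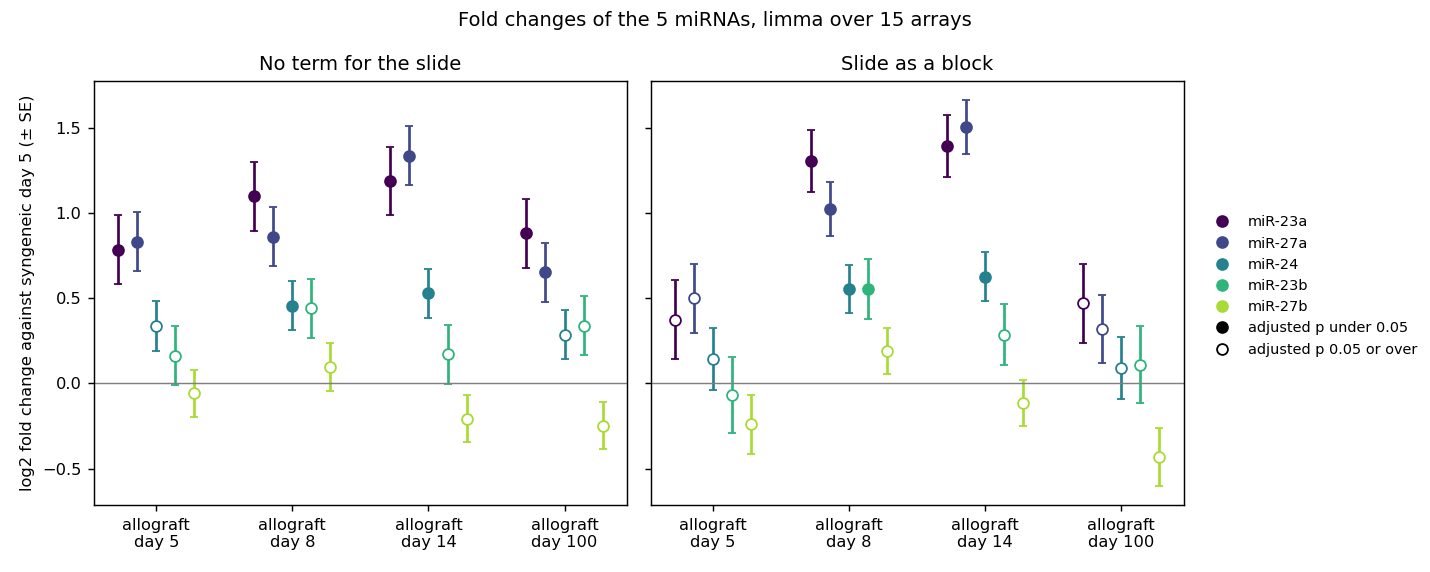
Log2 fold change (± SE) of the 5 miRNAs in the allografts of each day against the syngeneic grafts, by limma over 15 arrays, without a term for the slide (left) and with the slide as a block (right). Filled points have an adjusted p under 0.05. miR-23a and miR-27a are filled at all 4 days on the left and only at days 8 and 14 on the right.

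Whether the clusters changed unequally was tested on the difference between paralogs within each array, which does not depend on the scaling of the arrays. The difference is of log2 signals and was compared between groups, not read as a difference in level. For miR-23a minus miR-23b it was -0.35, -0.17 and 0.02 in the syngeneic grafts, and over the 12 allografts it ranged from 0.20 at day 100 to 1.05 at day 14. For miR-27a minus miR-27b it lay from 0.18 to 0.52 in the syngeneic grafts, from 1.08 to 1.52 at day 5, from 1.02 to 1.23 at day 8, from 1.71 to 2.20 at day 14 and from 1.19 to 1.31 at day 100. All allografts thus lay above all syngeneic grafts for both pairs. The mean over the 12 allografts exceeded that of the syngeneic grafts by 0.71 for miR-23a minus miR-23b, by 1.02 for miR-27a minus miR-27b and by 0.87 for the mean of the a-cluster minus that of the b-cluster. Each had an exact permutation p of 0.0022 (two-sided, also after adjustment over 3 differences), which is the smallest that the 455 ways to choose 3 of 15 arrays can give. Differences between the 5 groups made up 87.1%, 91.6% and 91.0% of the variance of the same quantities (exact permutation p = 0.000141, 0.000108 and 0.000181, each 0.000181 after adjustment). Since miR-23a and miR-27a were chosen by the study for their change on these arrays and their paralogs were not, these tests describe the arrays and are not independent evidence.

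Day by day, the fold change of miR-23a exceeded that of miR-23b by 0.62 at day 5, 0.66 at day 8, 1.01 at day 14 and 0.54 at day 100 on the log2 scale, each with an SE of 0.13. At day 14 this is a ratio of 2.02 between the fold changes. miR-27a exceeded miR-27b by 0.89, 0.76, 1.54 and 0.90 (SE 0.15), with a ratio of 2.91 at day 14. For the cluster means the ratio was 1.69, 1.64, 2.43 and 1.65 at days 5, 8, 14 and 100. In all 12 of these comparisons the 3 allografts lay above the 3 syngeneic grafts, where 3 against 3 grafts cannot give an exact permutation p below 0.1. With the slide as a block, miR-23a exceeded miR-23b by 0.44, 0.75, 1.11 and 0.36 at days 5, 8, 14 and 100. miR-27a then exceeded miR-27b by 0.74, 0.84, 1.62 and 0.75. With the means of the slides removed, the differences between the 12 allografts and the syngeneic grafts were 0.74, 1.05 and 0.89 (exact permutation p = 0.0051 for each, the smallest possible). Within slide 1, between 6 allografts and 2 syngeneic grafts, the differences were 0.93, 1.23 and 1.08 (exact permutation p = 0.0357, again the smallest possible), and within slide 2, between 6 allografts and 1 syngeneic graft, 0.40, 0.74 and 0.57 (exact permutation p = 0.143, the smallest possible there).

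**Figure D3:**
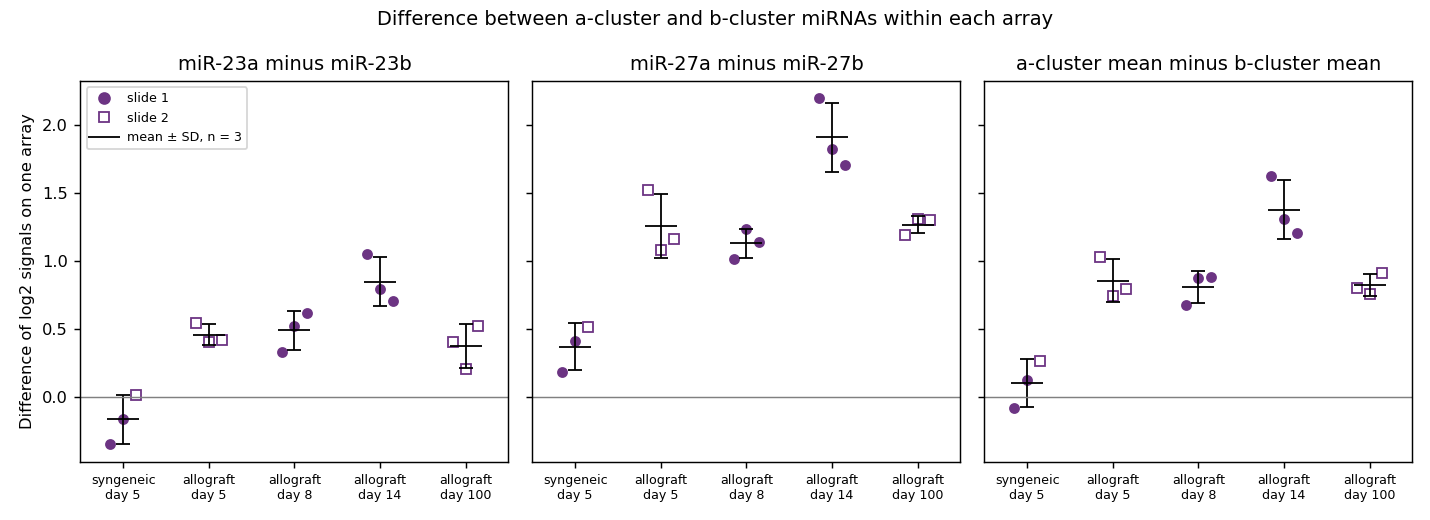
Difference of log2 signals within each array for miR-23a minus miR-23b, miR-27a minus miR-27b, and the a-cluster mean minus the b-cluster mean. Points are single grafts (filled circles slide 1, open squares slide 2), with the mean ± SD of 3. The syngeneic grafts are lowest in each panel, and the grafts of day 14 have the highest mean.

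Each member was measured by 2 probes, each printed as 7 to 10 usable spots, whose median coefficient of variation was 5.39%. The probes of a member moved the same way in all 20 comparisons of the 5 members with the syngeneic grafts. For miR-23a and miR-27a all 16 values, from 4 probes on 4 days, were above 0 and lay between 0.54 and 1.37 on the log2 scale. At day 14 the 4 probes of the a-cluster lay between 1.18 and 1.37, and the 4 probes of the b-cluster between -0.33 and 0.19. For miR-23b and miR-27b, 10 of 16 values were above 0. The largest gap between probes of the same member was 0.29, for miR-27b at day 100, where its signal was weakest.

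**Figure D4:**
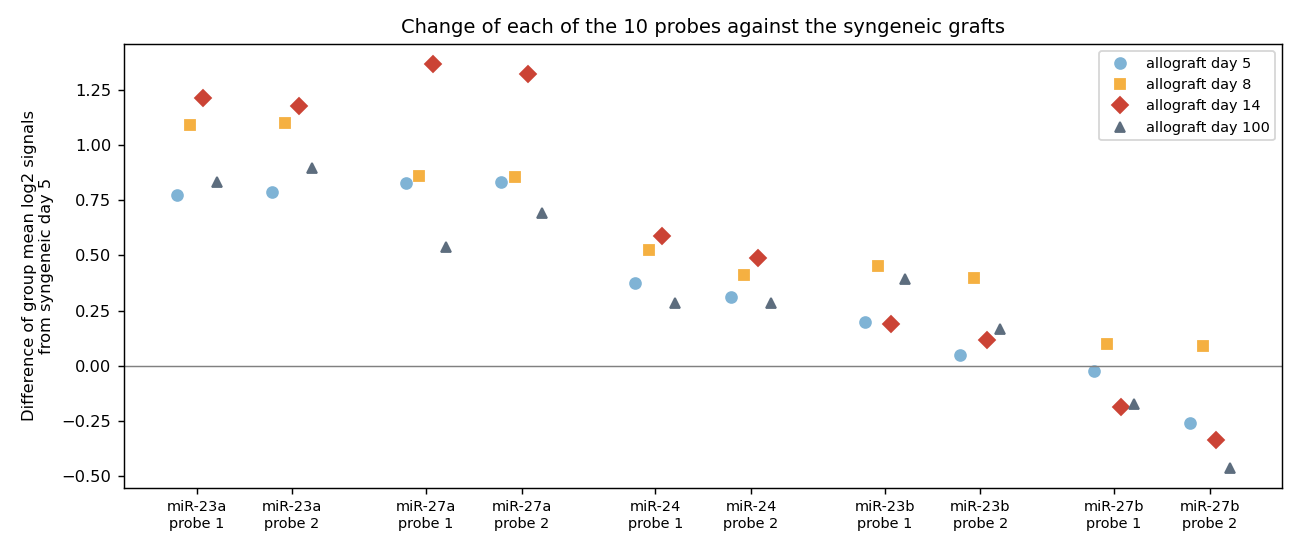
Difference of group mean log2 scaled signals from the syngeneic grafts for each of the 10 probes of the 5 miRNAs, with 1 symbol per allograft day. The paired probes of each miRNA lie close together, and the a-cluster probes lie between 0.54 and 1.37.

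Between allograft days, miR-27a alone was called. It was higher at day 14 than at day 100 by a log2 fold change of 0.68 ± 0.17 (1.61-fold, adjusted p = 0.00645 by limma), in a comparison that called 51.5% of all tested miRNAs and that crosses the slides. miR-27a was not called in that comparison with the 75th percentile over all miRNAs (0.49) or without scaling (0.90). The grafts of these days did not overlap, nor did those of 65% of all tested miRNAs. In the fit with a slide term, which called 19.4% of all tested miRNAs here, its log2 fold change was 1.18 ± 0.26 (adjusted p = 0.0134), and miR-23a was called as well, with 0.92 ± 0.30 (adjusted p = 0.0471) in place of 0.31 ± 0.20 (adjusted p = 0.236). Days 14 and 8, both on slide 1, differed for miR-27a by 0.48 ± 0.17, and although their grafts did not overlap (as in 46.6% of all tested miRNAs), this did not pass the threshold (adjusted p = 0.130). For miR-27b the value between these days was -0.30 ± 0.14 (adjusted p = 0.221). For day 14 against day 5 the log2 fold change of miR-27a was 0.51 ± 0.17 (adjusted p = 0.0721). These grafts did not overlap either, as in 42.7% of all tested miRNAs, and the difference passed under several other settings and without replicate 3 of the syngeneic grafts or of day 14. By limma, 0 of 5 members were called for day 14 against day 8, day 14 against day 5, day 8 against day 100, day 5 against day 100 and day 8 against day 5, where 5.83%, 12.6%, 19.4%, 29.1% and 1.94% of all tested miRNAs were. At an unadjusted p under 0.05 the counts were 2, 1, 1, 0 and 0 by limma, where 21.4%, 29.1%, 38.8%, 37.9% and 22.3% of all tested miRNAs passed, and 3, 2, 1, 0 and 1 by the methods' t-test, where 33%, 27.2%, 43.7%, 36.9% and 35% did.

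The passenger strand is the arm of the hairpin that is mostly degraded. Those of the Mir24 genes are shown because they differ between the loci and could tell the sources of miR-24 apart.
miR-24-2* (Mir24-2, a-cluster, chr8:84208839-84208860): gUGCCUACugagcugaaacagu
miR-24-1* (Mir24-1, b-cluster, chr13:63301213-63301235): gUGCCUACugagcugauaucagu
The array carries these and the passenger strands miR-27a* and miR-27b*. None of the 4 was detected on any of the 15 arrays. Their intensities lay between -12.8 and 10.4 on 14 arrays, and between -145 and -29.1 on the noisy replicate 1 of day 100. The locus from which miR-24 came was therefore not measurable here.

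The profiles most like each member were found by the root mean square difference of log2 signals over the 15 arrays, after each miRNA was centered on its own mean. For miR-23a the nearest of the 102 other tested miRNAs was miR-16 (0.20), followed by miR-27a (0.22), miR-92a (0.26) and let-7i (0.26), where the median over all others was 0.59. For miR-27a, let-7i and miR-16 (both 0.22) came before miR-23a (0.22), and miR-93 (0.26) came next. miR-23a and miR-27a thus rank among the 3 nearest of each other, while their paralogs rank lower, with miR-23b 13th for miR-23a and miR-27b 41st for miR-27a. The miRNAs outside the family that lay nearest to miR-24 were miR-126-3p, miR-15a and miR-500 (0.16 to 0.17), those nearest to miR-23b were let-7d, miR-107 and miR-126-3p (0.14 to 0.15), and those nearest to miR-27b were miR-30d, miR-130a and miR-361 (0.18 to 0.19). The log2 fold change of miR-500 against the syngeneic grafts was 0 at days 5 and 100, a value that arrays set to the floor give. The points of such a profile share their scaling and, on each slide, their handling.

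Among the lists of cell type markers, those of leukocytes and hepatocytes had calls on every allograft day. The endothelial list and the smooth muscle and fibroblast list had none. Of 6 leukocyte miRNAs, 5 were tested and miR-150 was detected on none of the 15 arrays. All 5 were upregulated at day 5, 3 at day 8, 5 at day 14 and 2 at day 100, and none was called lower. Upward calls made up 18.4%, 23.3%, 27.2% and 16.5% of all tested miRNAs on these days. All marker calls are from the fit without a slide term, which compares days 5 and 100 across slides. Marker calls with the slide as a block were not counted. The listed miR-223, miR-148a and miR-451 are among the miRNAs that the study chose for their change on these same arrays. The lists were also chosen with earlier results of these data known, so the marker counts are not independent evidence. The summed scaled signal of the 5 leukocyte miRNAs was 0.687 to 1.76 in the syngeneic grafts, 3.06 to 8.18 at day 5 (median 3.11), 2.24 to 2.67 at day 8, 3.10 to 4.26 at day 14 and 1.18 to 1.53 at day 100. The leukocyte miRNAs called at day 100 were mmu-miR-342-3p (log2 fold change 1.67, adjusted p = 8.54e-05 by limma) and mmu-miR-223 (0.80, adjusted p = 0.0247). The median log2 fold change of the 5 leukocyte miRNAs at day 100 was 0.18, and their summed signal lay within the range of the syngeneic grafts. Of the 5 hepatocyte miRNAs, which include the liver-defining miR-122 and were detected on all 15 arrays, 3, 5, 5 and 2 were downregulated at days 5, 8, 14 and 100, and none was called higher. Over all 103 tested miRNAs, 7, 18, 19 and 15 were called lower on these days. The summed signal of the hepatocyte miRNAs was 30.5 to 36.4 in the syngeneic grafts, 22.4 to 26.6 at day 5, 23.2 to 25.1 at day 8, 13.6 to 17.6 at day 14 and 23.8 to 28.5 at day 100. The endothelial marker miR-126-3p was not called on any day, with log2 fold changes of 0.24 to 0.32 and a signal of 0.762 to 0.934 in the syngeneic grafts and 0.919 to 1.10 over the allografts, and miR-126-5p was detected on 4 of 15 arrays and not tested. Of the smooth muscle and fibroblast list only miR-214 was tested, and it was not called, while miR-145 was detected on no array. The median signal of miR-214 was at the floor of 0.0270 in the syngeneic grafts and at day 5. Of 3 erythroid miRNAs 2 were tested, of which 1 was called higher on each of days 5, 8 and 14, 1 lower at day 8, and 0 at day 100. In whole grafts more cells of a type and more miRNA per cell cannot be told apart, and the part of these cell types in the changes of the family was not tested.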

How the data were processed

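MiRNA in 15 mouse liver grafts was measured with 1-color Agilent miRNA arrays. The authors deposited, per the file headers, the output of Feature Extraction 9.5.1.1: the background-subtracted intensity of each spot on the linear scale, not normalized between arrays, with median intensities, detection flags (other values) and a total signal per miRNA. The deposited table of normalized values was not used. Outlier spots were left out. Detection of a probe required a share of 0.5 of its spots above background by the software's flag. Signals were scaled by the 75th percentile over 52 miRNAs and floored at 0.0270 (log2 of -5.21). A miRNA entered the tests if every array in 1 or more groups detected it, which held for 103. They were fitted with limma 3.58.1 (R 4.3.3), 1 mean per group over 15 arrays. The intensity filter of the study's methods was not applied. The number of arrays limits the precision. No arrays of a group held identical values. Paralog differences were tested by exact permutation over arrays (Python 3.11.15, numpy 2.4.6, scipy 1.17.1). Named are the 5 members, their passenger strands, cell type markers, and per member the 3 tested miRNAs nearest in profile. Members and lists were chosen with earlier results of these data known. The fits were tested on simulated data. Of 9 array names, 8 had a mature sequence in the RefSeq table. Alternatives were other scalings, probe summaries, background correction (normexp on median intensities, offset 50), filters, floor, tests, slide or replicate number as a block, and each array left out.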

Additional observations from a re-analysis of the deposited data

How the results depend on the processing

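The a-cluster log2 fold changes against the syngeneic grafts stayed above 0 in all 272 values from the alternatives, and 30 of them no longer passed the threshold, of which 13 were at day 5, 15 at day 100, and 1 each at days 8 and 14. The number of members called at day 5 was 0 with the 75th percentile over all miRNAs, normexp, the slide as a block, within slide 2, only the groups compared, and the adjusted methods' t-test, 1 without a filter, and 3, with miR-24 added, with the 75th percentile without the members, the brightest probe, the unadjusted t-test and without replicate 3 of the syngeneic grafts. At day 100 it was 0 with the 75th percentile over all miRNAs, without a filter, with the slide as a block, within slide 2, with only the groups compared and with the adjusted t-test, 1 with normexp, and 4 with the 75th percentile without the members. The adjusted t-test called 1 member on each of days 8 and 14. Leaving out 1 array gave 1 to 2 calls at day 100, where miR-27a was lost without replicate 2 of the syngeneic grafts or replicate 3 of day 100. For day 14 against day 100 the count was 0 with the 75th percentile over all miRNAs and without scaling, 3 with median scaling, and 2 with the slide as a block and with the t-test, adjusted or not. With the slide as a block, miR-27a and miR-23a were higher at day 14. By the t-test miR-27a was higher and miR-23b lower (-0.17, adjusted p = 0.0491 by the t-test). For day 14 against day 8 the count was 1 with median scaling or quantile normalization and 3 with the unadjusted t-test. By that t-test miR-27a was higher at day 14, and miR-23b and miR-27b were lower (-0.27 and -0.30). For day 14 against day 5 the count was 2 with median scaling and the unadjusted t-test, 1 with normexp, mean log2 of the probes, quantile normalization, only miRNAs detected on all 15 arrays, and trend and robust moderation, and 0 to 1 with 1 array left out. For day 8 against day 100 it was 1 with the total signal of the software, mean log2 of the probes, only the groups compared and the unadjusted t-test, and for day 8 against day 5 it was 1 with the unadjusted t-test.

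Signs turned only for the b-cluster. miR-23b at day 5 was -0.020 with normexp and -0.068 with the slide as a block and within slide 2. With 1 array left out it ran from -0.064 to 0.27 at day 5 and from -0.054 to 0.29 at day 14, and the negative values are those without replicate 2 of the syngeneic grafts. miR-27b at day 5 was 0.033 with the 75th percentile without the members, 0.48 without scaling and 0.083 with the brightest probe, and ran from -0.13 to 0.041 with 1 array left out, above 0 without replicate 3 of the syngeneic grafts or replicate 1 of day 5. At day 8 it was -0.050 with median scaling and -0.16 with normexp, and without scaling it was 0.57 at day 14 and 0.31 at day 100. The cluster differences passed the threshold in 150 of 156 values. The others were within slide 2, with shares of variance between groups of 69.8% (miR-23), 80.1% (miR-27) and 82.2% (means) and differences of 0.40, 0.74 and 0.57, where 1 syngeneic graft cannot give a small exact p. Of 300 values of the differences per day, 23 moved by the SD within the groups or more, of which 8 were at day 5 and 9 at day 100. All 300 lay between 0.36 and 1.64. Differences within an array could not change without scaling or with another floor, since no member lay at the floor. For each test of a cluster difference, 15 of 26 alternatives left out 1 array and so shared most of their arrays.

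Same-numbered replicates did not deviate together: 9 of 30 pairs of arrays had a correlation over 0.1, with a range from -0.65 to 0.45. With the replicate number as a block (replicate block) the counts of members called were 2, 3, 3 and 2 at days 5, 8, 14 and 100, and the F test called 2. Signal over background limits miR-27b, with 1 detected probe on 5 of 15 arrays.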
